A study of Mus musculus with 2 samples.

Results

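The family of miR-130 and miR-301 was described in the retina of newborn CD-1 mice, an outbred laboratory strain, as every row named miR-130a, miR-130b, miR-301a or miR-301b in the deposited tables, whichever arm of the hairpin it came from. The rule gave 8 of the 1358 mature miRNAs listed, namely the 5p and the 3p arm of 4 hairpins. The series held 1 group of 2 small RNA libraries from wild-type retina at postnatal day 0, numbered replicate 1 and replicate 2. The labels do not say whether these came from separate animals, and they name no treatment or mutation.

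A miRNA hairpin is cut into a short duplex, and usually 1 strand of it stays in an Argonaute protein and guides it to messenger RNAs. The seed, bases 2 to 8 of the guide, does most of the target recognition. The 3p strands of this family share 1 seed and are the strands for which the family is known, for example in the repression of the fat cell regulator PPARG and, for miR-130a, in blood vessel growth. The 5p strands have other seeds and are usually described as passengers.

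The most frequent read of each arm is shown first, because the results turn on which arm was sequenced and on which bases the members share. Reads are written 5′ to 3′ with the seed in capitals, and each was the same in both libraries.
miR-130b-5p: aCTCTTTCcctgttgcactact
miR-301a-5p: gCTCTGACtttattgcactact
miR-301b-5p: gCTCTGACtaggttgcactact
miR-130a-3p: cAGTGCAAtgttaaaagggc
miR-130b-3p: cAGTGCAAtgatgaaagggc
miR-301a-3p: cAGTGCAAtagtattgtcaaagc
miR-301b-3p: cAGTGCAAtggtattgtcaaagc
The eighth arm, miR-130a-5p, rested on 4 and 3 counts, and its most frequent read was gCTCTTTTcacattgtgcta in replicate 1 and gCTCTTTTcacattgtgctact in replicate 2.

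All 4 of the 3p reads began with the same 9 bases, CAGTGCAAT, and so carried 1 seed. miR-301a-3p and miR-301b-3p differed by a single base over 23, A10G (positions from 1 at the 5′ end, first-named member first). miR-130a-3p and miR-130b-3p differed by T11A and A13G over 20 bases. Reads with a sequencing error could therefore pass between miR-301a-3p and miR-301b-3p. How many mismatches the counting allowed is not stated in the sources used.

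The 5p reads held 3 seeds. miR-301a-5p and miR-301b-5p shared CTCTGAC, miR-130b-5p had CTCTTTC and miR-130a-5p had CTCTTTT. The 5p reads of miR-130b, miR-301a and miR-301b ended in the same 10 bases, TTGCACTACT, whose first 7 are the exact reverse complement of the 3p seed. miR-130a-5p lacked that run and differed from miR-130b-5p there by T16C and G17A. The reverse complement of a hairpin's 3p seed was present in the 5p read of 3 of the 4 family hairpins and of 27 of the 272 hairpins (9.93%) with a read for both arms in replicate 2.

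Both arms lie in the stem of the hairpin, shown here as the RefSeq sequence of build GRCm38.p6 with the most frequent read of each arm in replicate 2 in capitals.
miR-130a: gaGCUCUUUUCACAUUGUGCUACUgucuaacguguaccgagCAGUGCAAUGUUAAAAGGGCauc
miR-130b: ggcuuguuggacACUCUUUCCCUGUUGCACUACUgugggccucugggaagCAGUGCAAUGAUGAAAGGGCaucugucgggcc
miR-301a: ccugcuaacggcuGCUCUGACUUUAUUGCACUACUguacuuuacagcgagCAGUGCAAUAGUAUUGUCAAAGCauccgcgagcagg
miR-301b: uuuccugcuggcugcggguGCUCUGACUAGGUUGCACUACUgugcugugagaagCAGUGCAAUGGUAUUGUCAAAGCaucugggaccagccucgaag
The reads lay 13 to 17 bases apart in these hairpins. On GRCm38, Mir130a spans 84741115 to 84741178 of chromosome 2, minus strand, in no annotated host transcript and 991 bases from the protein-coding gene Gm19426. Mir130b (chromosome 16, 17124061 to 17124142) and Mir301b (17124400 to 17124496) lie 257 bases apart on the minus strand, both in an intron of the protein-coding gene 2610318N02Rik. The hairpin of miR-301a, named Mir301 in this annotation, lies on the plus strand of chromosome 11 (87113004 to 87113089) in an intron of Ska2, a gene of the spindle and kinetochore complex.

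The tables held 8337902 counts in replicate 1 and 8118196 in replicate 2 after rounding. Levels are these counts scaled to the library total as CPM, so a count of 0 allowed up to 0.36 and 0.37 CPM by a floor of 3 counts and up to 0.442 and 0.454 CPM by the exact two-sided interval. Intervals cover counting error only. All 5 miRNAs taken as markers of neural retina were detected, from 649 to 227200 CPM. The marker lists were chosen with earlier results of these data known, so this detection is no independent check of the tissue. Of 9 markers of vessels, blood, pigment epithelium and lens, 6 had a count in both libraries, and miR-223-3p, miR-150-5p and miR-205-5p were at 0. Among the 6, smooth muscle miR-143-3p was at 58.4 and 64.9 CPM, whereas smooth muscle miR-145a-5p had only 1 and 2 counts. Blood miR-451a had only 3 and 3 counts. Endothelial miR-126a-3p was at 969 and 840 CPM, and miR-184-3p, of pigment epithelium and lens, at 738 and 869 CPM. The 9 markers summed to 5549 and 4770 CPM, most of it miR-204-5p at 3783 and 2994 CPM. In whole tissue, fewer cells of a type and less RNA per cell cannot be told apart, and the cells that held the family were not measured.

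The family was a small but readily measured part of the newborn retina's miRNAs, and its most abundant member was a 5p strand. The 8 members together held 0.171% of the counts in replicate 1 (exact binomial 95% interval 0.169 to 0.174) and 0.151% in replicate 2 (0.148 to 0.153), a mean of 0.161% ± 0.0148 (SD, n = 2). All 8 were detected in both libraries, as were 919 of the 1358 miRNAs, though miR-130a-5p had only 4 and 3 counts. Of the members, 7 reached 10 CPM, a level reached by 364 of the 1358 miRNAs. A level of 100 CPM was reached by 4 members and by 180 of the 1358 miRNAs. The median level over all listed miRNAs was 0.73 CPM.

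miR-130b-5p, the strand opposite the seed-bearing one, was at 893 CPM in replicate 1 and 818 CPM in replicate 2, a mean of 856 ± 52.9 CPM and rank 79. It alone made up 52.1% and 54.4% of the family's counts. The 7 other members together were thus below this single strand in each library. miR-16-5p, at 865 ± 113 CPM, and miR-361-3p, at 842 ± 11.9 CPM, stood next to it in rank and differed from it by less than its SD. Neighbours were picked as the nearest in mean level, so their closeness follows from the choice. All 14 such comparisons for the members at 10 CPM or more lay within the member's SD.

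miR-130a-3p, the vessel-linked member, was the highest of the 3p strands, at 382 CPM in replicate 1 and 303 CPM in replicate 2 (mean 343 ± 55.5 CPM, rank 112). Its neighbours in rank, picked in the same way, were miR-92b-3p and miR-32-5p, both within its SD. Endothelial miR-126a-3p was at 905 ± 90.9 CPM in the same libraries, and how much of miR-130a-3p lay in vessels was not tested.

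miR-301a-5p followed at 164 and 148 CPM (mean 156 ± 11.3 CPM, rank 155). miR-130b-3p, which carries the family seed, was at 149 and 122 CPM (mean 135 ± 19.2 CPM, rank 163). These neighbours were close, with a log2 ratio of miR-301a-5p over miR-130b-3p of 0.14 in replicate 1 and 0.28 in replicate 2. The mean of 0.21 ± 0.10 lay only just over 2 SD, so their order is weakly supported.

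The next 3 members could not be ordered. miR-301b-3p was at 48.9 and 37.6 CPM, miR-301b-5p at 46.7 and 38.4 CPM and miR-301a-3p at 30.7 and 37.7 CPM. In replicate 1 miR-301a-3p lay below the others, and in replicate 2 the 3 values lay within 1 CPM of each other with overlapping intervals. miR-301b-3p exceeded miR-301a-3p by a log2 ratio of 0.67 in replicate 1, whereas the ratio was -0.0047 in replicate 2, so that order rested on replicate 1.

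miR-130a-5p was far below the rest, at 0.48 CPM in replicate 1 (4 counts, interval 0.131 to 1.23) and 0.37 CPM in replicate 2 (3 counts, 0.0762 to 1.08). A pair of members was called different where both libraries had the same sign, the exact binomial 95% interval of the pair's split left out an even split in both, and the mean of the log2 ratios exceeded 2 SD. Of the 28 pairs of members 25 met this, and the other 3 were the pairs among miR-301b-3p, miR-301b-5p and miR-301a-3p. No share was computed over pairs of other miRNAs, so this count does not show a trait of the family. The ligation of adapters differs in yield between RNA sequences, and each ratio between members holds that yield too.

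**Figure D1:**
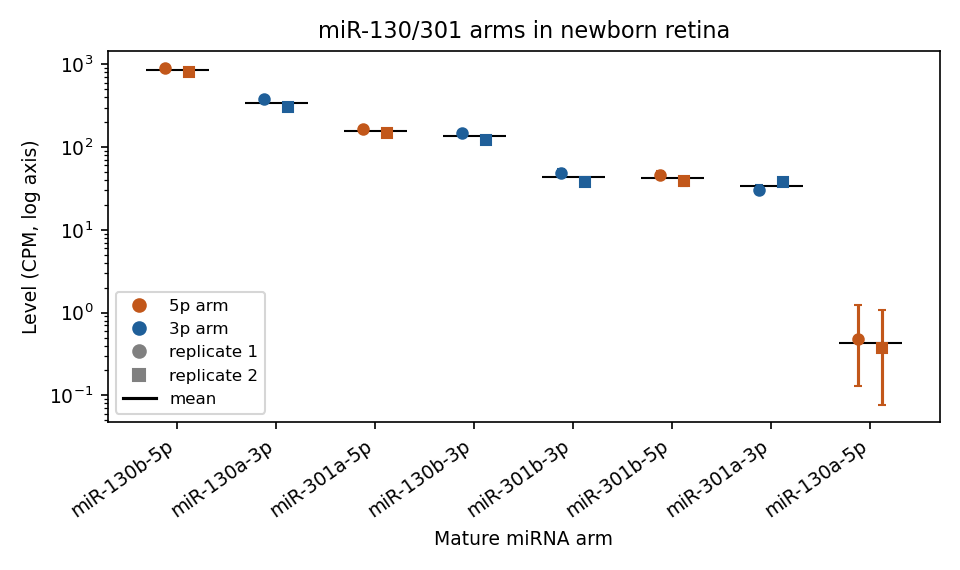
Level of each arm of the family in each library, in CPM on a log axis. Circles are replicate 1, squares replicate 2, bars the exact binomial 95% interval and black lines the mean. miR-130b-5p was highest in both libraries (893 and 818 CPM), 3 arms lay together between 30.7 and 48.9 CPM, and miR-130a-5p was below 1 CPM.

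Summed by hairpin, miR-130b gave the most reads and its neighbour miR-301b the fewest. Both arms of miR-130b held 1042 and 940 CPM, those of miR-130a 382 and 304 CPM, those of miR-301a 194 and 185 CPM and those of miR-301b 95.6 and 76.0 CPM. The order was the same in both libraries. miR-130b exceeded miR-130a 2.90-fold (log2 ratio 1.54 ± 0.13, SD, n = 2), miR-130a exceeded miR-301a 1.80-fold (0.84 ± 0.19) and miR-301a exceeded miR-301b 2.23-fold (1.15 ± 0.19), all called by the rule for pairs. The hairpins of miR-130b and miR-301b lie in the same intron and strand, yet their counts differed 11.6-fold (log2 ratio 3.54 ± 0.13, called).

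The arms were used unevenly across the family, from almost only 3p in miR-130a to mostly 5p in miR-130b and miR-301a. In miR-130a the 5p arm was 4 of 3188 counts in replicate 1 and 3 of 2466 in replicate 2, a share of 0.125% (interval 0.0342 to 0.321) and 0.122% (0.0251 to 0.355). In miR-130b the 5p arm was 85.7% in replicate 1 (85.0 to 86.4) and 87.0% in replicate 2 (86.3 to 87.8). The hairpins of miR-130a and miR-130b, whose 3p reads differ by 2 bases, therefore stood at opposite ends of the family.

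In miR-301a the 5p arm was 84.2% in replicate 1 (82.3 to 85.9) and 79.7% in replicate 2 (77.5 to 81.7). These intervals did not overlap, and the 5p strand led in both libraries. In miR-301b the arms were even, with a 5p share of 48.8% (45.3 to 52.3) and 50.6% (46.5 to 54.6). miR-301a and miR-301b, whose 3p reads differ at 1 base and whose 5p reads share a seed, differed in their arm ratio by 2.48 and 1.93 on the log2 scale (mean 2.21 ± 0.39).

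**Figure D2:**
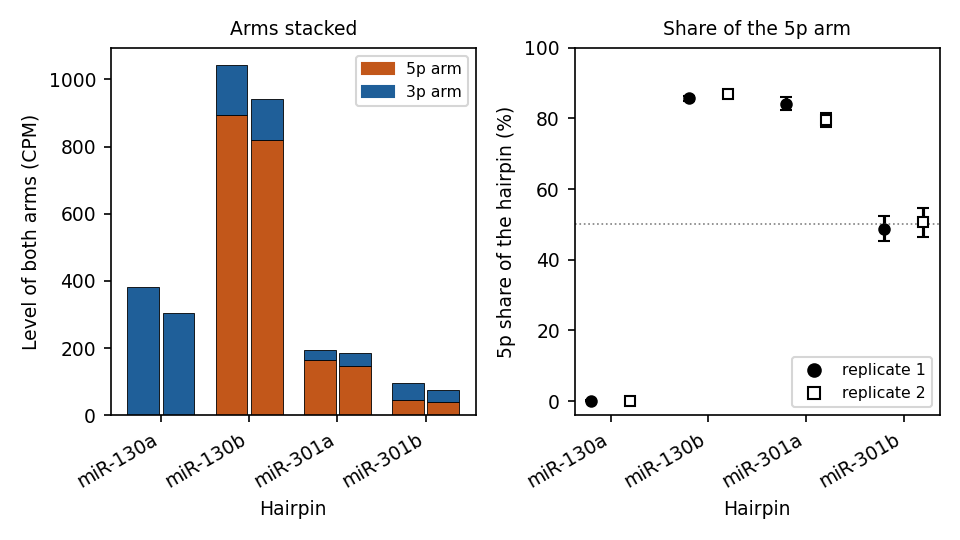
Left, level of the 5p (orange) and 3p (blue) arms stacked for each hairpin in CPM, replicate 1 and replicate 2 side by side. Right, share of the 5p arm in each hairpin in percent with its exact binomial 95% interval, the dotted line marking an even split. The share ran from 0.125% and 0.122% in miR-130a to 85.7% and 87.0% in miR-130b.

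The log2 ratio of 3p over 5p counts was 9.46 ± 0.0055 for miR-130a, -2.67 ± 0.12 for miR-130b, -2.19 ± 0.31 for miR-301a and 0.018 ± 0.072 for miR-301b (SD, n = 2). The value of miR-130a rests on 4 and 3 counts of its 5p arm, to which 0.5 was added. Its SD, here and in differences from it, therefore understates the counting error. With 1 added in place of 0.5 the value was 9.29. An even split of the counts between the arms was tested in each library (exact binomial, two-sided). The p-values were adjusted by Benjamini-Hochberg over the 312 hairpins with both arms listed under 1 hairpin name and 10 or more counts in each library. Hairpins whose arms are listed under unlike names, such as let-7a-5p and let-7a-1-3p, were left out, and all hairpins here means these 312. A difference, which had to pass in both libraries with 1 sign and exceed 2 SD, was called in 3 of the 4 family hairpins, against 89.4% of all hairpins, so a called difference was the usual outcome. miR-301b was not called, with adjusted p = 0.536 and 0.82 in the exact test in the 2 libraries, and its intervals allowed a 5p share from 45.3% to 54.6%.

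A 4-fold or larger ratio to the 5p arm in both libraries was met by miR-130b alone of the 4, against 40.4% of all hairpins. The same ratio to the 3p arm was met by miR-130a alone, against 36.9% of all hairpins. miR-301a was just outside, with 5p over 3p at 5.32-fold in replicate 1 and 3.91-fold in replicate 2, whereas miR-130b was at 5.99-fold and 6.71-fold. miR-130a had the highest ratio to 3p of the family and rank 18 of the 312. The family median of the log2 ratio was -1.09 and that of all hairpins was -0.22, with quartiles at -4.79 and 4.51.

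The arm ratio of miR-130a exceeded that of miR-130b by 12.1 ± 0.11 on the log2 scale, with 12.1 and 12.2 in the 2 libraries. That of miR-301b exceeded that of miR-130b, its neighbour in the same intron, by 2.65 in replicate 1 and 2.71 in replicate 2. miR-130b and miR-301a differed by 0.17 and 0.78, a mean of 0.48 ± 0.43, which was near 1 SD.

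**Figure D3:**
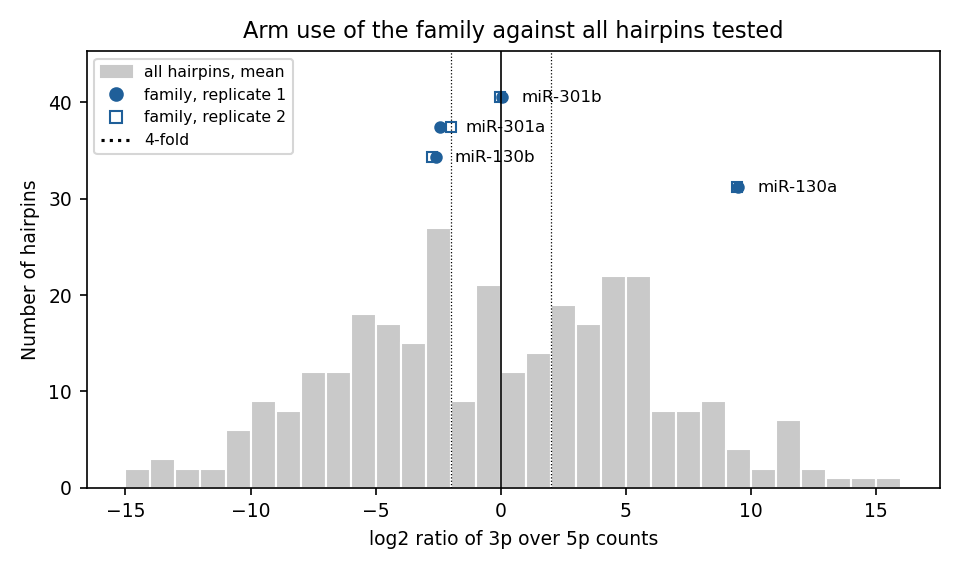
Histogram of the log2 ratio of 3p over 5p counts, as the mean of both libraries, for the 312 hairpins tested, with the 4 family hairpins above it in each library (their height has no meaning). Dotted lines mark 4-fold. miR-130a lies far to the 3p side at 9.46, miR-130b and miR-301a lie near the 5p 4-fold line and miR-301b near 0.

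Over the whole family the 5p strands outnumbered the strands that carry the shared seed. The 5p arms held 64.4% of the family's counts in replicate 1 (63.6 to 65.2) and 66.7% in replicate 2 (65.9 to 67.6), a log2 ratio over the 3p arms of 0.93 ± 0.11. This rested on miR-130b-5p. Without it the other 5p arms were below the 3p arms in both libraries, at a log2 ratio of -1.48 ± 0.077.

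Counted by seed, the family's strands fell on 4 seeds at unequal levels. The seed AGTGCAA of the 3p strands stood at 610 and 500 CPM (mean 555 ± 77.8 CPM), rank 73 of the 1110 seeds found among the most frequent reads. miR-6341 was the other listed miRNA with this seed in RefSeq, and it was at 0 in both libraries. The seed CTCTTTC was found in miR-130b-5p only and, at 856 ± 52.9 CPM, ranked 58. miR-130b-5p exceeded all 3p strands together 1.55-fold (log2 ratio 0.55 in replicate 1 and 0.71 in replicate 2, mean 0.63 ± 0.11, called).

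The seed CTCTGAC of miR-301a-5p and miR-301b-5p stood at 215 and 190 CPM, rank 114. miR-6952-3p, with 4.80 and 4.43 CPM, was the other miRNA whose read held it. These levels count reads, and the share of each strand bound to Argonaute was not measured.

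The family seed overlaps that of miR-19 and that of miR-148 and miR-152, which were taken for comparison. Their reads are shown with the 6 bases in common in capitals, and in each case the bases sit 1 position away from their place in the reads of the miR-130 and miR-301 family.
miR-19a-3p: tGTGCAAatctatgcaaaactgt
miR-19b-3p: tGTGCAAatccatgcaaaactgt
miR-148a-3p: tcAGTGCActacagaactttgt
miR-148b-3p: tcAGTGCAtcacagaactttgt
miR-152-3p: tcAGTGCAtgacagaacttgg
GTGCAA is at positions 2 to 7 in miR-19 and 3 to 8 in this family, and AGTGCA is at 3 to 8 in miR-148 and miR-152 and 2 to 7 here. miR-19, known from the proliferation-linked miR-17~92 cluster, was at 498 and 443 CPM over both members. The 3p strands of miR-130 and miR-301 were slightly above it, at a log2 ratio of 0.29 in replicate 1 and 0.18 in replicate 2 (mean 0.23 ± 0.082, called). The strands of miR-148 and miR-152 together stood at 21887 and 24832 CPM, 42.2-fold above the 3p strands of miR-130 and miR-301 (log2 ratio 5.40 ± 0.33, called). Most of this was miR-148a-3p, at 20207 and 22934 CPM. miR-148b-3p was at 1295 and 1409 CPM and miR-152-3p at 385 and 489 CPM.

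The reads of all members began where they are annotated, and the 3p reads ended alike. The most frequent read of all 8 members started at the annotated base of miRBase release 21 in both libraries, as did 168 of the 180 miRNAs (93.3%) at 100 CPM or more. At the other end, all 4 of the 3p reads stopped after the same GC, with auc next in each hairpin. Their entries differ in length there. miR-130a-3p and miR-130b-3p were 20 bases long in both libraries, without the last 2 bases of the RefSeq entry, shown in capitals.
miR-130a-3p: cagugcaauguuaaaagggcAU
miR-130b-3p: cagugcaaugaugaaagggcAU
Of the 161 miRNAs at 100 CPM or more with a RefSeq sequence, 7 (4.35%) lacked 2 or more 3′ bases in both libraries, these 2 included. miR-301a-3p was 23 bases long and matched its entry, and the 5p reads of miR-130b, miR-301a and miR-301b matched theirs at 22 bases. miR-301b-3p was also 23 bases long and carried no mark against miRBase. All 4 of the 3p reads began with C, as did 38 of the 180 miRNAs (21.1%) at 100 CPM or more, while 48.9% of those began with T.

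Most of the family was lower in replicate 2 by table totals, as were 139 of the 198 miRNAs that differed. The 710 miRNAs with 10 or more counts over both libraries were each tested for a difference between the libraries (exact binomial, two-sided, Benjamini-Hochberg over the 710), which says nothing of conditions. By table totals, 6 of the 7 members tested were lower in replicate 2, against 19.6% of all tested miRNAs that were lower and 27.9% that differed in either direction. At 100 CPM or more, where counts are high, 141 of 180 miRNAs differed, 96 of them lower in replicate 2. Over all miRNAs tested, the median of the log2 ratio was -0.12 with table totals and -0.0037 with TMM, a scaling to the bulk of the miRNAs.

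With TMM scaling, 3 of the 7 members differed, against 26.3% of all miRNAs tested. miR-130a-3p was lower in replicate 2 with a log2 ratio of -0.21 (exact binomial test, adjusted p = 2.8e-07), miR-130b-3p with -0.17 (adjusted p = 0.0215), and miR-301a-3p was higher with 0.41 (adjusted p = 0.0036). By table totals miR-301a-3p had a log2 ratio of 0.30 and was not called (exact binomial test, adjusted p = 0.0555). It was the member whose sign was opposite to the other 6 under both scalings.

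miR-130b-5p had a log2 ratio of -0.13 by table totals and -0.0079 by TMM, and miR-301a-5p had -0.15 and -0.030. Neither was called under TMM. miR-301b-3p was at -0.38 and -0.26, and miR-301b-5p at -0.28 and -0.16. Both were called by table totals and not by TMM, and miR-301b-3p was also called with DESeq2 size factors, which called 26.6% of all miRNAs tested.

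**Figure D4:**
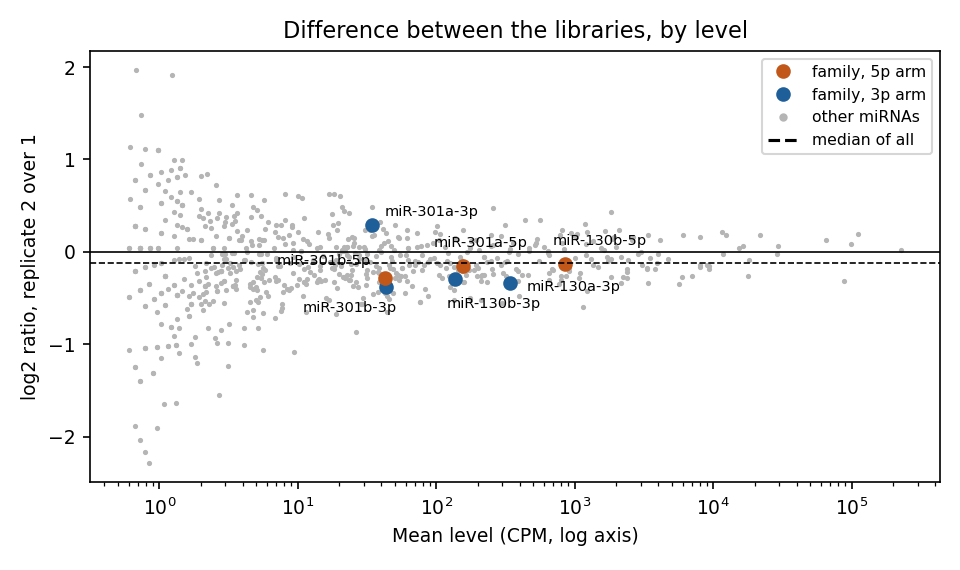
Log2 ratio of replicate 2 over replicate 1 by table totals against the mean level in CPM (log axis) for the 710 miRNAs tested, with the 7 tested members coloured by arm. The dashed line is the median of all, -0.12. Of the 7 members, 6 lie below 0, and miR-301a-3p lies above it at 0.30.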

How the data were processed

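Per the labels' protocols, small RNA of newborn retina was taken from a denaturing gel, ligated to adapters and sequenced, and cDNA was cut by size from another gel. Per the submitters' processing notes, bcl2fastq 2.17.1.14 made the read files. No aligner, counter or build is named in the sources used.

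The deposited table of estimated counts has 1 unscaled value per miRNA and library. Among the 8 members 2 values were not whole, in replicate 1, and counts were rounded. The deposited CPM are scaled to a library total of the authors' choice, and the rows sum to 88.5% of it. The third deposited table gives the most frequent read of each miRNA as text, with marks relative to miRBase release 21, per the file headers. RefSeq held a mature sequence for 7 of the 8 members.

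CPM were computed here over the table totals. Log2 ratios used 0.5 added to each count. Binomial tests and intervals were exact, with Benjamini-Hochberg adjustment over all rows or hairpins at 0.05. They cover counting error only, since amplified reads are not independent molecules, and with 2 libraries an SD is imprecise. The tests were checked on simulated counts that held counting error only, so the check does not bear on further spread between libraries. Named miRNAs were all members, miRNAs with the member seed, the miR-19, miR-148 and miR-152 families, markers of cell types and the miRNA 1 rank above and below each member at 10 CPM or more. miR-6952-3p was named after its values were seen. The members and lists were chosen with earlier results of these data known. Alternatives were TMM and DESeq2 scaling, the deposited CPM, unrounded counts, another pseudocount, fold and count minimum, and each library alone.

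Tools were R 4.3.3 with edgeR 4.0.16 and DESeq2 1.42.0, and Python 3.11.15 with SciPy 1.17.1, statsmodels 0.14.6, NumPy 2.4.6, matplotlib 3.10.9 and pandas 2.3.3.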

Additional observations from a re-analysis of the deposited data

How the results depend on the processing

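The arm ratios of miR-130a, miR-130b and miR-301a kept their direction under the settings tried. Those of miR-301b, which was not called, were 0.069 in replicate 1 and -0.033 in replicate 2 taken alone, and the order of miR-301b-3p and miR-301a-3p changed in the same way (0.67 and -0.0047). The number of members that differed between the libraries depended on the scaling and on the count minimum. Of 140 comparisons of a pair of members with an alternative setting, 138 gave the same call, and in the other 2 miR-301a-3p was below miR-301b-3p and miR-301b-5p in replicate 1 taken alone (log2 ratios 0.67 and 0.60). The family's share was 0.142% of the authors' total in the deposited CPM, because that total is larger than the table's, and the share with 1 library left out was 0.151% to 0.171%. With 10-fold in place of 4-fold dominance, 0 of the 4 family hairpins were dominated by the 5p arm, against 95 of 312 hairpins, and 1 by the 3p arm, against 93 of 312. By TMM scaling 3 members differed between the libraries, 2 of them lower in replicate 2, and with DESeq2 size factors 4 differed, 3 of them lower. With no count minimum 4 of the 8 members differed by table totals, against 183 of the 1145 miRNAs tested. In that setting miR-301a-5p and miR-301b-5p were no longer called (exact binomial test, adjusted p = 0.0584 and 0.0666). Over all miRNAs, higher and lower calls in replicate 2 were 59 and 139 by table totals, 107 and 80 by TMM and 101 and 88 with DESeq2 size factors. No paired analysis was possible because the series has 1 group. miR-130a-5p, with 4 and 3 counts, is limited by depth.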
